A study of Homo sapiens with 12 samples.

Results

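Solute carriers are the largest group of membrane transporters in human cells. The solute carrier genes described here are those whose platform symbol is SLC followed by a family number, the letter A and a member number, without pseudogenes and without SLC7A11. The platform held 315 such genes. A gene was measured through the probe set with the highest mean that exceeded 136.5, the median of all deposited values, on at least 3 of 12 arrays, which left 230 members of 54 families among 14221 genes tested in all.

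The arrays came from 3 human soft tissue sarcoma cell lines: A-204 (labelled rhabdomyosarcoma), SK-LMS-1 (leiomyosarcoma) and VA-ES-BJ (epithelioid sarcoma). Each line was left untreated or received taurolidine at 250 µmol/l, TRAIL at 50 ng/ml, or both agents (the combination) for 6 h, with 1 array for each of the 4 treatments per line. Taurolidine is an antimicrobial compound derived from the amino acid taurine, and TRAIL is a death ligand of the tumour necrosis factor family. All lines were kept in medium with non-essential amino acids and fetal bovine serum. The question put to the arrays was which transcripts differ when the agents are given alone or together.

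Solute carriers move their substrates across membranes by facilitated diffusion, by exchange, or by coupling to the sodium or proton gradient. Plasma membrane families take up sugars (SLC2, SLC5), amino acids (SLC1, SLC6, SLC7, SLC38), metal ions (SLC11, SLC39), vitamins and choline (SLC19, SLC44) and inorganic ions (SLC4, SLC9, SLC12, SLC20), while SLC30 carriers move zinc out of the cytosol. SLC25 carriers sit in the inner mitochondrial membrane and exchange metabolites, nucleotides and cofactors with the cytosol, and several families serve lysosomes, the endoplasmic reticulum or vesicles. Tumour cells are known to rely on glucose, glutamine and leucine carriers for growth.

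The signal values are MAS5 intensities scaled by the authors to a common trimmed mean of 1000.1 to 1000.2 on each array, with array medians of 123.2 to 155.4. Nothing in the labels states separate cultures behind a line's arrays, and no treatment was repeated within a line, so the p-values measure the spread between these 12 arrays, which may be partly technical. In the line labelled rhabdomyosarcoma, the muscle genes MYOD1 and MYOG lay at 21.3 to 69.3 and 10.2 to 62.4 and DES at 116 to 201, all near or below the table median. The other lines were alike in this. MYOD1 and MYOG stayed below that median there, and DES lay at 127 to 187 in SK-LMS-1 and 62.8 to 177 in VA-ES-BJ. In VA-ES-BJ, KRT19, an epithelial keratin, reached 16189 to 19459, against 9.33 to 67.6 in A-204 and 27.9 to 125 in SK-LMS-1. EPCAM, another epithelial gene, went the other way, at 1727 to 2374 in A-204, 130 to 210 in VA-ES-BJ and 13.8 to 71.6 in SK-LMS-1. Poly-A spike transcripts were 0.59 ± 0.11 (log2, SD over 3 lines) higher on the arrays with taurolidine. Scaling to the spikes assumes that equal amounts were added for every array, which was not tested.

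Of the 230 members, 148 exceeded the table median on all 12 arrays, 82 on fewer, and 8 on exactly 3. A further count of 9 members exceeded it in a single line only, of which A-204 held 2, SK-LMS-1 held 3 and VA-ES-BJ held 4. A member of that kind entered through the line in which it was high, and its line difference is therefore a description. Among the 85 genes left out, 62 exceeded the median on no array. Just outside the filter, with 2 arrays over the median, lay SLC40A1 (mean 117), the iron exporter ferroportin, and SLC7A3 (mean 114), while SLC18A2 lay just inside with 3. The widely studied lactate carriers SLC16A1 and SLC16A3 were not analysed here.

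The lines differed in a large share of the members, as they did in all genes. SK-LMS-1 had low SLC16A14, SLC16A9 and SLC47A1, VA-ES-BJ had high SLC16A4, SLC7A5, SLC29A1 and SLC39A10, and A-204 had low SLC4A4 and SLC38A5 and high SLC27A1 and SLC7A8. In limma, with lines compared over their 4 arrays each and Benjamini-Hochberg adjusted p under 0.05, 123 of 230 members (53.5%) differed between A-204 and SK-LMS-1, where 55.9% of all genes tested did. Between A-204 and VA-ES-BJ 133 members (57.8%) differed, against 56.0% of all genes, and between SK-LMS-1 and VA-ES-BJ 146 members (63.5%), against 56.7%. Among the 148 members over the median on all arrays the shares were 56.1%, 66.9% and 67.6%, against 59.2%, 59.6% and 60.9% of all genes of that kind.

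The direction of these calls was uneven. A-204 was higher than SK-LMS-1 for 80 members and lower for 43, a split that became 68 to 61 with equal array medians and 55 to 72 with scaling to the spikes. SK-LMS-1 was lower than VA-ES-BJ for 98 members and higher for 48 (82 and 63 with scaling to the spikes), and A-204 was lower than VA-ES-BJ for 73 and higher for 60. The background shares were 28.5% higher and 27.4% lower for A-204 against SK-LMS-1, 29.3% and 27.4% for SK-LMS-1 against VA-ES-BJ, and 30.2% and 25.8% for A-204 against VA-ES-BJ. In all, 185 members (80.4%, against 77.8% of all genes) passed in at least 1 line comparison, 57 in all 3 and 45 in none. The median line difference of the members was 0.16 for A-204 minus SK-LMS-1, -0.08 for A-204 minus VA-ES-BJ and -0.19 for SK-LMS-1 minus VA-ES-BJ, beside 0.02, 0.07 and 0.02 for all genes. With scaling to the spikes the medians of all genes were shifted to -0.27 in the first and 0.24 in the last of these comparisons.

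A stricter pattern asked for a mean at least 4-fold apart from both other lines, with both comparisons past the threshold. VA-ES-BJ was the high line for 13 members (5.65%, against 2.85% of all genes), A-204 for 5 (2.17%, against 3.18%) and SK-LMS-1 for 4 (1.74%, against 2.15%). SK-LMS-1 was the low line for 9 members (3.91%, against 2.35%), VA-ES-BJ for 3 (1.3%, against 1.74%) and A-204 for 2 (0.87%, against 1.79%). Because some genes had 2 patterns, 33 members were involved. These shares include members that passed the filter only through the line where they were high. Among the 148 members over the median on all arrays, VA-ES-BJ was the high line for 5 (3.38%, against 0.847% of all genes of that kind), A-204 for 2 (1.35%, against 0.826%) and SK-LMS-1 for 0 (against 0.491%), while SK-LMS-1 was the low line for 1 (0.676%, against 0.638%), A-204 for 0 (against 1.04%) and VA-ES-BJ for 0 (against 0.565%). This count was added after seeing the data.

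**Figure D1:**
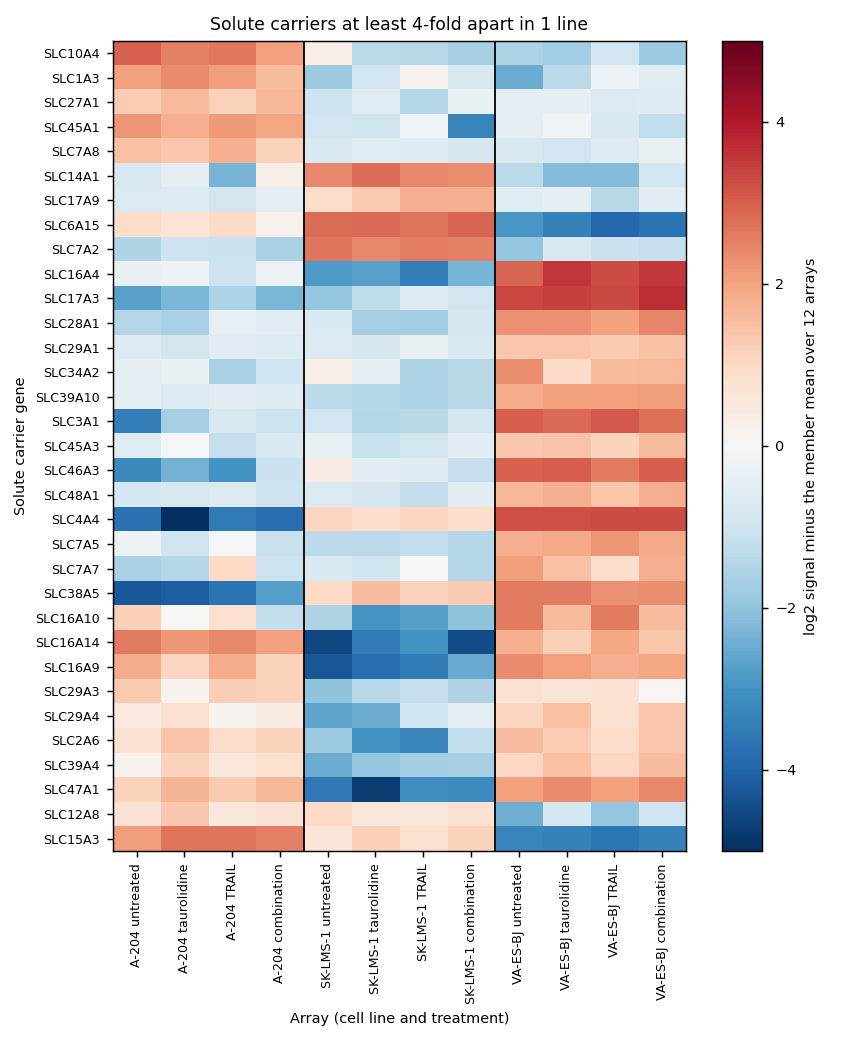
Log2 signal of the 33 members at least 4-fold apart in 1 line, minus the member's mean over 12 arrays, with a row per gene and a column per array (cell line and treatment). Red is above and blue below the member mean, and black lines part the cell lines; the VA-ES-BJ block holds 13 of the genes high in 1 line, and SK-LMS-1 holds 9 of those low in 1 line.

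The monocarboxylate family SLC16, which carries lactate, pyruvate, aromatic amino acids and related acids, had 6 members. All 6 differed between SK-LMS-1 and A-204 and between SK-LMS-1 and VA-ES-BJ, and 3 between A-204 and VA-ES-BJ, where 55.9%, 56.7% and 56.0% of all genes did. SLC16A14 lay at 6.91 to 43 in SK-LMS-1, below the table median on every array, against 1823 to 2614 in A-204 and 989 to 1680.3 in VA-ES-BJ. SLC16A9, a carnitine-linked member, followed with 16.7 to 85.9 in SK-LMS-1, 1176 to 2019 in A-204 and 1945 to 2864 in VA-ES-BJ. Neither gene's SK-LMS-1 arrays overlapped those of another line.

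SLC16A4 gave the widest step of the family between SK-LMS-1 (109.6 to 254) and VA-ES-BJ (9976 to 15738), with A-204 between them at 635 to 1120.5, and SK-LMS-1 minus VA-ES-BJ was -6.14 ± 0.18 (log2, standard error; limma adjusted p = 9.4e-08). SLC16A10, an aromatic amino acid carrier, stood at 385 to 818 in VA-ES-BJ and at 5.94 to 36.4 in SK-LMS-1. SLC16A7, the high-affinity pyruvate carrier, ran the other way, with 316 to 437 in SK-LMS-1 above 75.6 to 164 in A-204 and 11.3 to 91.8 in VA-ES-BJ. Of the 6 members 5 were lower in SK-LMS-1 than in A-204 and 1 was higher, and the same counts held against VA-ES-BJ, under each of the 4 scalings. The class median was 2.42 above that of all genes for A-204 minus SK-LMS-1.

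Among 39 members for amino acids and their derivatives, 24 differed between A-204 and SK-LMS-1 (61.5%), 24 between A-204 and VA-ES-BJ (61.5%) and 21 between SK-LMS-1 and VA-ES-BJ (53.8%), shares near the 55.9%, 56.0% and 56.7% of all genes. In the last of these comparisons 15 were higher in VA-ES-BJ and 6 lower (12 and 7 with scaling to the spikes). SLC7A5, the light chain of the leucine exchanger LAT1, lay at 25664, 26628, 33436 and 26807 in VA-ES-BJ (untreated, taurolidine, TRAIL and combination), against 3322 to 6739.5 in A-204 and 2661 to 3102 in SK-LMS-1. Its heavy chain partner SLC3A2 was also highest in VA-ES-BJ, at 7621 to 9349.9, against 3649.6 to 4856 and 2276 to 3529. For both genes the VA-ES-BJ arrays lay above every array of the other lines.

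SLC3A1, the heavy chain of the cystine and dibasic amino acid exchanger, was over the table median on all arrays of VA-ES-BJ (1895 to 2333) and near or below it elsewhere, at 13.8 to 149.9 in A-204 and 90.1 to 141 in SK-LMS-1. SLC7A8, another leucine-type exchanger, was high in A-204 instead (1013 to 1549, against 234 to 287 and 227 to 345). SLC7A2, a cationic amino acid carrier, exceeded the median only in SK-LMS-1, at 434 to 534. SLC6A15, a carrier of branched-chain amino acids and proline, reached 1495 to 1757 in SK-LMS-1 and 263 to 445 in A-204 but only 3.79 to 19.7 in VA-ES-BJ.

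SLC38A5, a glutamine carrier of system N, was below the median on all A-204 arrays (33.4 to 115) and stood at 1713 to 2517 in SK-LMS-1 and 4244 to 5212 in VA-ES-BJ. The glutamate carrier SLC1A3 had the opposite place, at 270.2 to 468 in A-204 and at 15 to 95.2 in SK-LMS-1 and 5.15 to 65.7 in VA-ES-BJ. SLC1A1, a second glutamate carrier, was low in VA-ES-BJ (200.0 to 339.7) and at 879 to 1289.7 in A-204. The taurine carrier SLC6A6, of interest because taurolidine is derived from taurine, was lower in SK-LMS-1 (1395 to 2069) than in A-204 (3502 to 4161) or VA-ES-BJ (3396 to 3839), where A-204 minus SK-LMS-1 was 1.15 ± 0.13 and SK-LMS-1 minus VA-ES-BJ -1.10 ± 0.13 (limma adjusted p = 0.00011 and 0.00013).

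Among the 27 metal ion carriers, 17 differed between SK-LMS-1 and VA-ES-BJ (63.0%, against 56.7% of all genes), 12 of them higher in VA-ES-BJ and 5 lower (10 and 9 with scaling to the spikes). The zinc importer SLC39A10 lay at 16671 to 19687 in VA-ES-BJ, 2835 to 3344 in A-204 and 1568 to 1847 in SK-LMS-1, with no overlap between any lines. SLC39A14, which imports zinc and manganese, was at 22209 to 29223 in VA-ES-BJ and at 6572 to 9032 in A-204 and 7992 to 11512 in SK-LMS-1. SLC39A4, the intestinal zinc importer, was low in SK-LMS-1 (169 to 306) and at 1129 to 2197 in A-204 and 2011 to 2922 in VA-ES-BJ.

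The zinc exporter SLC30A1 was high in VA-ES-BJ (9737 to 11096) and lay at 1961, 2577, 2101 and 5621 in A-204 and 2277, 1245, 2392 and 1104 in SK-LMS-1, in the treatment order given above. The A-204 array with both agents stood above the other 3 of its line, and the SK-LMS-1 arrays with taurolidine lay below those without. No treatment comparison of SLC30A1 passed the threshold.

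Of 17 sugar and polyol carriers 8 were higher in A-204 than in SK-LMS-1 and 1 was lower, a split of 6 to 4 with scaling to the spikes. These are 52.9% of the class, against 55.9% of all genes (28.5% higher and 27.4% lower). Between SK-LMS-1 and VA-ES-BJ 2 were higher in SK-LMS-1 and 9 lower (3 and 7 with the spikes), or 64.7%, against 56.7% of all genes (29.3% higher and 27.4% lower). SLC2A1, the glucose carrier GLUT1, was low in VA-ES-BJ (501 to 603) and higher in A-204 (1797 to 2337) and SK-LMS-1 (1522 to 2218), which differed by 0.04 ± 0.13 without passing (limma adjusted p = 0.82). SLC2A3, or GLUT3, passed in none of the 3 line comparisons. SLC5A3, the sodium-coupled inositol carrier, stood at 11926 to 16745 in A-204, 4507 to 5700.1 in VA-ES-BJ and 1028 to 2109 in SK-LMS-1.

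SLC2A13, the proton-coupled inositol carrier, was in contrast low in A-204 (282 to 329) and at 1004 to 1366 in SK-LMS-1. SLC2A6, a lysosomal hexose carrier, was below the table median on every SK-LMS-1 array (17.5 to 110.1). SLC45A1 was high in A-204 (765 to 1022, against 10.5 to 183 in SK-LMS-1 and 83.4 to 183 in VA-ES-BJ).

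The sodium bicarbonate cotransporter SLC4A4 lay at 9634 to 9822 in VA-ES-BJ, 1875 to 2158 in SK-LMS-1 and 6.26 to 76.1 in A-204, below the table median on each A-204 array. Its SK-LMS-1 minus VA-ES-BJ difference was -2.26 ± 0.37 (limma adjusted p = 0.001), and the size of its step to A-204 depends on the constant added to values so low. The phosphate carrier SLC20A1 was higher in SK-LMS-1 (12795 to 15506) than in A-204 (6308 to 8979.8). SLC12A2, the sodium, potassium and chloride cotransporter NKCC1, was lower in SK-LMS-1 (1095 to 1379.9) than in VA-ES-BJ (2012 to 3224).

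The equilibrative nucleoside carrier SLC29A1, which also takes up nucleoside drugs, was at 12026 to 13409.7 in VA-ES-BJ, 2614 to 3337 in A-204 and 2709 to 3821 in SK-LMS-1. A-204 and SK-LMS-1 overlapped, with a log2 difference of -0.02 ± 0.11 (limma adjusted p = 0.92). The concentrative carrier SLC28A1 exceeded the median only in VA-ES-BJ (548 to 738). Of 11 members for nucleosides and nucleotide sugars, 10 differed between SK-LMS-1 and VA-ES-BJ (90.9%, against 56.7% of all genes), 8 of them higher in VA-ES-BJ (6 of 8 with scaling to the spikes).

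Carriers of drugs, lipids, peptides and vitamins added further marks of single lines. The drug and organic cation exporter SLC47A1 lay at 12.3 to 63.2 in SK-LMS-1, against 1385 to 2112 in A-204 and 2647 to 3432 in VA-ES-BJ. The lysosomal peptide carrier SLC15A3 was below the median in VA-ES-BJ (13.1 to 18.7) and at 1274 to 1907 in A-204. The fatty acid carrier SLC27A1 was high in A-204 (1790.2 to 2495, against 284 to 621 and 475 to 576).

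The vesicular nucleotide carrier SLC17A9 was high in SK-LMS-1 (659.7 to 1229.7), and the urea channel SLC14A1 exceeded the median there alone (353 to 488). The haem carrier SLC48A1 was high in VA-ES-BJ (3221 to 4312), as were SLC46A3 (1314 to 1771) and SLC17A3 (1004 to 1302). The choline carrier SLC44A1 had a different level in each line, at 5691 to 7513 in A-204, 3311 to 4059.9 in SK-LMS-1 and 1574 to 1935 in VA-ES-BJ, with no overlap.

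Mitochondrial carriers held no member with the 4-fold pattern. Of 39 SLC25 members, 18 differed between A-204 and SK-LMS-1 (46.2%), 25 between A-204 and VA-ES-BJ (64.1%) and 21 between SK-LMS-1 and VA-ES-BJ (53.8%), where 55.9%, 56.0% and 56.7% of all genes did. The peroxisomal cofactor carrier SLC25A17 was higher in A-204 (7035 to 8537) than in SK-LMS-1 (2178 to 2511) or VA-ES-BJ (2257 to 2841). The phosphate carrier SLC25A3 and the adenine nucleotide carrier SLC25A5 passed in no line comparison, and SLC25A3 lay at 32043 to 43402 in A-204, 31084 to 37524 in SK-LMS-1 and 26109 to 37995 in VA-ES-BJ.

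Taurolidine was followed by lower levels of a small set of carriers and by small rises of another. SLC61A1, SLC18A2, SLC25A13, SLC25A44, SLC19A2, SLC25A28, SLC38A2, SLC4A7, SLC11A2, SLC71A1, SLC38A9, SLC25A33 and SLC37A3 fell, and SLC39A4, SLC50A1, SLC67A1, SLC37A4, SLC66A3, SLC25A45 and SLC25A39 rose. In limma, 20 of 230 members (8.7%) passed the threshold against untreated cells, where 19.2% of all genes tested did. The 7 that rose are 3.04% of members, against 7.73% of all genes, and the 13 that fell 5.65%, against 11.5%. Falls ranged from 1.27-fold to 3.0-fold and rises from 1.28-fold to 1.57-fold, and 3 falls and 0 rises reached 2-fold. SLC18A2 is among these 3 falls, but it exceeded the table median only on arrays without taurolidine, so its fall is a description. All 20 had the same direction in the 3 lines. In these bulk RNA samples, fewer cells of a kind and less RNA per cell cannot be told apart.

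The median change of the 230 members was 0.01 on the log2 scale, beside -0.0035 for all genes tested, and the median absolute change 0.26, beside 0.30. The split of 7 rises to 13 falls moved with the scaling: it was 21 to 10 after quantile normalisation, 20 to 8 with equal array medians and 0 to 124 with scaling to the spikes. The spike scaling shifted the median of all genes to -0.62, and the equal medians shifted it to 0.11. Relative to that median, all 7 rises and all 13 falls kept their side under each of these scalings. Equal medians and the spikes rescale each array by a common factor, which moves a gene and that median nearly alike. For these scalings the side could therefore hardly change, and keeping it is no check of the calls. With the spikes 6 of the 7 rises had a sign below 0.

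Removing a whole cell line left few calls, with 2 members past the threshold without A-204 (SLC19A2 and SLC25A34), 1 without SK-LMS-1 (SLC17A4, named like SLC25A34 after its values were seen) and 1 without VA-ES-BJ (SLC61A1). Each of the 20 members kept its direction in all 3 of these fits. That had to follow from their shared direction in the 3 lines and is no further check. With unadjusted p under 0.05 there were 47 members, against 34.5% of all genes. A count without a model asked for both arrays with taurolidine to lie above, or below, both without in each of the 3 lines: 18 members (7.83%, against 14.1% of all genes) lay above and 22 (9.57%, against 15.0%) below, among them 5 of the 7 that rose and all 13 that fell.

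**Figure D2:**
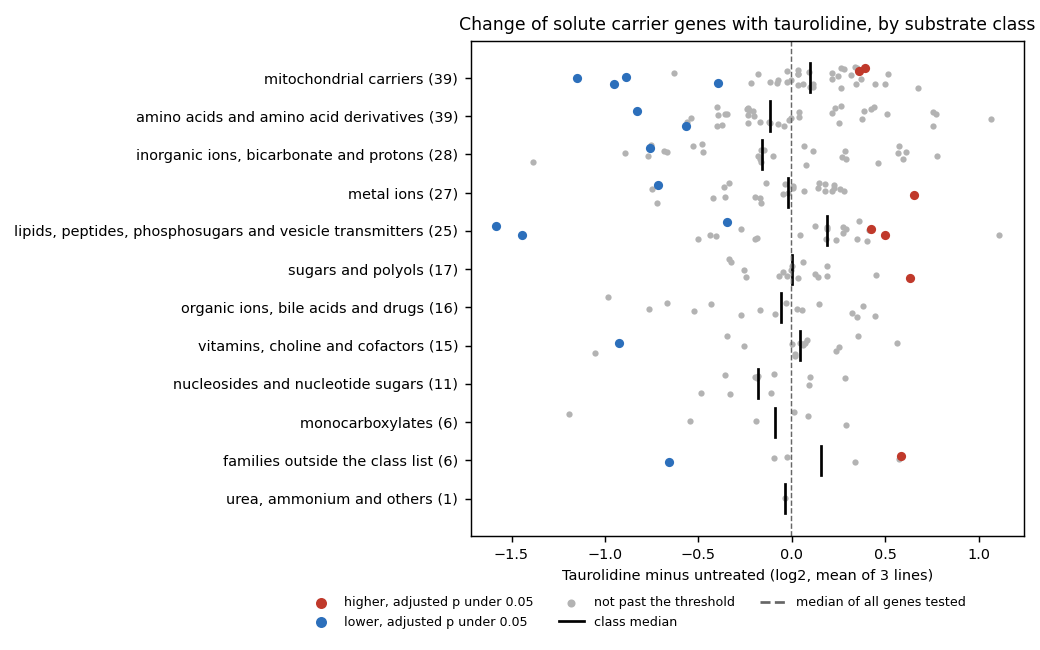
Change with taurolidine (log2, mean of 3 lines) of each of 230 members, grouped by substrate class with the number of members in brackets; red and blue points passed the threshold, grey points did not, black bars are class medians and the dashed line is the median of all genes. The points past the threshold lie in 8 of the 12 classes, most of them in mitochondrial carriers (6, or 15.4%) and in the class of lipids, peptides, phosphosugars and vesicle transmitters (5, or 20.0%), where 19.2% of all genes passed. With scaling to the spikes 6 of the 7 red points would lie below 0.

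SLC61A1, named as a molybdate carrier, had the largest fall. Its signal was 3241, 2216 and 3659.7 in untreated A-204, SK-LMS-1 and VA-ES-BJ and 716, 707 and 1879.7 with taurolidine, and 3134, 2205 and 3303 with TRAIL and 1144, 646 and 1809 with both agents. The 6 arrays with taurolidine all lay below the 6 without it, with no overlap across lines. The change was -1.58 ± 0.25 (log2, standard error, 3 lines; limma adjusted p = 0.0066), or 3.0-fold lower.

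SLC25A13, or citrin, the aspartate and glutamate carrier of the malate-aspartate shuttle, stood at 4704, 2932 and 7477 untreated and at 2214, 826 and 5112 with taurolidine in the same order of lines. With TRAIL it was 4286, 2606 and 8003, and with both agents 1997, 795 and 5540.3. In each line both arrays with taurolidine lay below both without, while VA-ES-BJ arrays with taurolidine lay above the others without it. The change was -1.15 ± 0.27 (limma adjusted p = 0.023).

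SLC19A2, the high-affinity thiamine carrier, read 1045, 815 and 1964 untreated and 450.0, 452 and 1168 with taurolidine, then 1038, 732 and 1925 with TRAIL and 505, 500.2 and 1184 with both. The arrays with and without taurolidine did not overlap within a line. Its change of -0.92 ± 0.13 (limma adjusted p = 0.0039) had the smallest p-value of the members. It was also 1 of the 2 members past the threshold when A-204 was left out.

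The 250 bases upstream of the RefSeq transcription start (GRCh38.p14, strand of the gene, 5′ to 3′) are shown for these 3 falling members. They are examples from the 9 members that fell both without and with TRAIL. Capitals mark the motifs that were searched on both strands: the GC box GGGCGG, the CCAAT box CCAAT, the E-box CACGTG, the cyclic AMP element core TGACGT, the ETS core CCGGAAG, the AP-1 site TGACTCA and the TATA box TATAAA. The windows are chr12:53251845-53252094 on the plus strand, chr7:96322099-96322348 on the minus strand and chr1:169485971-169486220 on the minus strand. In SLC25A13 the CCAAT box and a GC box adjoin and share no base.
SLC61A1: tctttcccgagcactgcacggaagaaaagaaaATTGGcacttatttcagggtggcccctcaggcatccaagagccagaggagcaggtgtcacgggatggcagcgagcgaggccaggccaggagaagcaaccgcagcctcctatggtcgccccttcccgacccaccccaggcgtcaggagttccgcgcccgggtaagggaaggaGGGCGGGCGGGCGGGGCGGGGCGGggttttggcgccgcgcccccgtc
SLC25A13: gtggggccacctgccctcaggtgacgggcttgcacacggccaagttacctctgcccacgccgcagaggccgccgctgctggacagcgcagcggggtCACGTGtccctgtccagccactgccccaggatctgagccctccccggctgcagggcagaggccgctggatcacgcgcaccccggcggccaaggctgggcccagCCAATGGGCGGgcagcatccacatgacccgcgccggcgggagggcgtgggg
SLC19A2: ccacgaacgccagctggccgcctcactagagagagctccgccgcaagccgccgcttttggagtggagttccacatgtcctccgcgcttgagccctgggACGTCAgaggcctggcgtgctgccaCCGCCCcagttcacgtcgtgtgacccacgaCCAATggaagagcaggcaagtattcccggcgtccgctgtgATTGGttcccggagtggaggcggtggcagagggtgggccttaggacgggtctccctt

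A promoter entry was found for 191 of the 230 members, including 12 of the 13 that fell and 6 of the 7 that rose. A CCAAT box lay in 8 of those 12 windows (66.7%) and in 2 of the 6 of the rising members (33.3%), against 34.6% of the 191 members and 34.7% of 11414 promoters of genes tested. A GC box lay in 11 of 12 (91.7%) and in 6 of 6 (100.0%), against 63.9% and 64.6%. An E-box lay in 2 of the 12 (16.7%), against 8.6% of all, and the cyclic AMP element core in 3 (25.0%), against 9.88%. The ETS core and the TATA box lay in 0 of the 18 windows, against 14.8% and 6.03% of all, and the AP-1 site in 1 of the 6 of rising members, against 2.62%. The median GC content was 70.0% for the falling and 68.4% for the rising members, beside 64.8% for all. These matches describe letters only, and with so few windows no share was tested.

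Further falls came from 3 mitochondrial carriers. SLC25A44, which carries branched-chain amino acids, went from 2032, 2160.2 and 2888 untreated to 1007, 840.0 and 2038 with taurolidine, a change of -0.95 ± 0.19 (limma adjusted p = 0.013). SLC25A28, or mitoferrin 2, a mitochondrial iron importer, went from 1550.3, 1013 and 908 to 604, 533 and 683, with no overlap across lines, a change of -0.89 ± 0.20 (adjusted p = 0.02 in limma). SLC25A33, a pyrimidine nucleotide carrier, fell by 0.40 ± 0.11, from 3167, 1707 and 1908 to 2492, 1069.8 and 1688.

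In the mitochondrial class as a whole 4 of 39 members fell, 2 rose and 33 did not pass, where 11.5% of all genes fell and 7.73% rose. The 2 that rose were SLC25A39, the mitochondrial glutathione carrier, from 4211, 3390.0 and 10968 to 6122, 4509.7 and 11949, and SLC25A45, from 303, 182 and 162 to 459, 207 and 221. Their rises were 0.36 ± 0.10 and 0.39 ± 0.11 (limma adjusted p = 0.047 and 0.039) as deposited, but -0.28 and -0.22 with scaling to the spikes. The class median lay 0.10 above that of all genes, and 0.15 after quantile normalisation.

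Of the 39 amino acid carriers 2 fell, 0 rose and 37 did not pass, where 11.5% of all genes fell and 7.73% rose. SLC38A2, the sodium-coupled neutral amino acid carrier SNAT2, read 31629, 24550.2 and 14098 untreated and 12398, 14445 and 10942 with taurolidine, then 29532, 22844 and 17588 with TRAIL and 15169, 13278 and 9869.7 with both. Both arrays with taurolidine lay below both without in each line, and the change was -0.83 ± 0.17 (limma adjusted p = 0.016). SLC38A9, the lysosomal arginine sensor, went from 890.1, 1512 and 1213 to 599.9, 1005 and 819, a change of -0.57 ± 0.12.

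The related SLC38A1 stood at 14215, 8107 and 15085 untreated and 10288, 5668 and 13700.3 with taurolidine, a difference of -0.37 ± 0.11 that did not pass (limma adjusted p = 0.054). The taurine carriers did not pass either: SLC6A6 was at 3556, 2069 and 3711 untreated and 3761, 1668 and 3396 with taurolidine (difference -0.12 ± 0.15, limma adjusted p = 0.62), and SLC36A1, which also accepts taurine, at 567, 711 and 1567 and 568, 716 and 674. The subunits of the leucine exchanger, SLC7A5 and SLC3A2, differed by -0.24 ± 0.20 and 0.39 ± 0.13 without passing, as did the glutamine carrier SLC1A5 at -0.24 ± 0.29. The class median lay 0.11 below that of all genes, and 0.07 below after quantile normalisation.

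Among 27 metal ion carriers 1 fell, 1 rose and 25 did not pass, where 11.5% of all genes fell and 7.73% rose. SLC11A2, the divalent metal carrier DMT1, which moves iron out of endosomes, went from 1994, 1386 and 2134 untreated to 1175, 630.4 and 1765 with taurolidine, a change of -0.72 ± 0.16 (limma adjusted p = 0.02). Among its 4 other tested probe sets, 3 had the same sign and 0 passed, so the call rests on 1 of 5 probe sets. SLC39A4 rose from 1129, 169 and 2041 to 2197, 252 and 2807, by 0.65 ± 0.17, and in SK-LMS-1 the TRAIL array (285) lay above the taurolidine array.

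Zinc exporters and most zinc importers gave values without a call. SLC39A6 and SLC39A14 differed by 0.28 ± 0.10 and -0.20 ± 0.17, and SLC30A7 by -0.42 ± 0.14 (limma adjusted p = 0.074). The copper importer SLC31A1 differed by 0.07 ± 0.15.

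SLC4A7, a sodium bicarbonate cotransporter that loads cells with base, was the 1 of 28 inorganic ion carriers past the threshold (3.57%, against 19.2% of all genes). It went from 6551, 3978 and 3306 untreated to 2923, 2285 and 2639 with taurolidine, with no overlap across lines and a change of -0.76 ± 0.21 (limma adjusted p = 0.039). The other 27, including SLC20A1 (-0.17 ± 0.17) and SLC12A2 (-0.10 ± 0.20), did not pass. The class median lay 0.15 below that of all genes, and 0.02 below after quantile normalisation.

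SLC50A1, a sugar carrier of the SWEET family, was the 1 of 17 sugar and polyol carriers past the threshold (5.88%, against 19.2% of all genes). It rose from 2288, 614 and 1051 untreated to 4175, 1053 and 1261 with taurolidine, by 0.63 ± 0.15 (limma adjusted p = 0.026) as deposited, while its change was -0.0012 with scaling to the spikes. The glucose carriers SLC2A1 and SLC2A3 differed by 0.19 ± 0.15 and 0.45 ± 0.17 and did not pass. SLC2A3 stood at 1172, 1033 and 1362 untreated and 1704, 1896 and 1317 with taurolidine, so the treated array was the higher one in A-204 and SK-LMS-1 and the lower one in VA-ES-BJ. SLC5A3 differed by 0.03 ± 0.22.

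SLC67A1, also known as SLC22A18 and of unsettled substrate, rose from 1666, 462 and 1297 untreated to 2713, 671 and 1877 with taurolidine, and stood at 1624, 451 and 1265 with TRAIL and 2345, 673 and 2041 with both. Within each line the arrays with taurolidine lay above those without. The rise was 0.59 ± 0.09 (limma adjusted p = 0.0067) as deposited and -0.045 with scaling to the spikes. SLC71A1, an orphan carrier of the major facilitator fold, fell from 4952, 4855 and 5737 to 2494, 2769 and 5048, by 0.66 ± 0.17.

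SLC66A3, a PQ-loop membrane protein, rose from 2026, 1728 and 4651 untreated to 2802, 2246 and 6296 with taurolidine and stood at 2113, 1721 and 4857 and 2882, 2364 and 6762 with TRAIL and with both. The change was 0.43 ± 0.08 (limma adjusted p = 0.011) as deposited and -0.21 with scaling to the spikes. SLC37A4, the glucose 6-phosphate carrier of the endoplasmic reticulum, rose by 0.50 ± 0.14 as deposited, with an overlap in A-204, and its relative SLC37A3 fell by 0.35 ± 0.09. SLC18A2, the vesicular monoamine carrier, fell by 1.45 ± 0.27 from 165, 105 and 200.1 to 61, 19 and 85.1, values close to or below the table median. SLC18A2 passed the filter only through arrays without taurolidine, so its fall is a description. In the class that holds these carriers and SLC61A1 (lipids, peptides, phosphosugars and vesicle transmitters), 2 of 25 members rose and 3 fell, where 7.73% of all genes rose and 11.5% fell. The class median lay 0.19 above that of all genes.

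The upstream windows of 2 rising members, given in the same way, lie at chr11:2902028-2902277 and chr2:11155217-11155466, both on the plus strand. They hold 6 and 14 GC boxes in capitals, neighbours of which can share a G, and none of the other motifs.
SLC67A1: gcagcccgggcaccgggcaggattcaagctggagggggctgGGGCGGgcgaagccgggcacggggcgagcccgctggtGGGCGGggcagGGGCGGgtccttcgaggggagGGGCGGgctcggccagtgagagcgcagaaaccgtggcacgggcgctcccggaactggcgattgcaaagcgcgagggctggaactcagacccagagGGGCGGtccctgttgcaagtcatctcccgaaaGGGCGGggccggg
SLC66A3: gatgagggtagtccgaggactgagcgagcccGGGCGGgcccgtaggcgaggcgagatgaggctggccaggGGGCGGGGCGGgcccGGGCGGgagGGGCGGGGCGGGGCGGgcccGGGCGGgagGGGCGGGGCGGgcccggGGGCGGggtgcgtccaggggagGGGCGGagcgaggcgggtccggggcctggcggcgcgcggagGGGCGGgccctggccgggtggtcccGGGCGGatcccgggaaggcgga

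Where 19.2% of all genes passed for taurolidine, no member for monocarboxylates (0 of 6), nucleosides and nucleotide sugars (0 of 11) or organic ions, bile acids and drugs (0 of 16) did. SLC16A10 had the largest difference among these, from 298, 36.4 and 818 untreated to 131, 5.94 and 399.6, at -1.19 ± 0.44 (limma adjusted p = 0.098). SLC29A1 differed by -0.11 ± 0.13. In the class of vitamins, choline and cofactors SLC19A2 alone passed among 15 members (6.67%, against 19.2% of all genes), while the folate carrier SLC19A1 differed by 0.02 ± 0.14 and the choline carrier SLC44A1 by 0.25 ± 0.09.

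Taurolidine given on top of TRAIL, compared with TRAIL alone, takes its difference from the other 6 arrays. Its standard errors and p-values come from the fit to all arrays, which gives each gene the same estimate of the spread in both comparisons. In limma 22 members (9.57%) passed, against 16.2% of all genes, with 11 higher (4.78%, against 6.53% of all genes) and 11 lower (4.78%, against 9.63%). At an unadjusted p under 0.05 there were 59, against 33.8%. The split was 21 to 8 after quantile normalisation, 8 to 10 with equal array medians and 0 to 91 with scaling to the spikes. Without A-204, SK-LMS-1 or VA-ES-BJ the count was 1 (SLC6A11), 2 (SLC25A37 and SLC9A5, the latter named after its values were seen) or 1 (SLC61A1).

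A set of 13 members passed both without and with TRAIL, always in the same direction. They are 65.0% of the 20 and 59.1% of the 22, and for all genes the 1698 shared calls are 62.2% and 73.9%. Because both comparisons use the same estimate of the spread for each gene, the shared calls are not an independent repeat. SLC61A1, SLC25A13, SLC25A44, SLC19A2, SLC38A2, SLC11A2, SLC71A1, SLC25A33 and SLC37A3 fell in both, and SLC25A39, SLC25A45, SLC66A3 and SLC67A1 rose in both as deposited. In both comparisons 3.73% of all genes were higher and 8.21% lower.

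**Figure D3:**
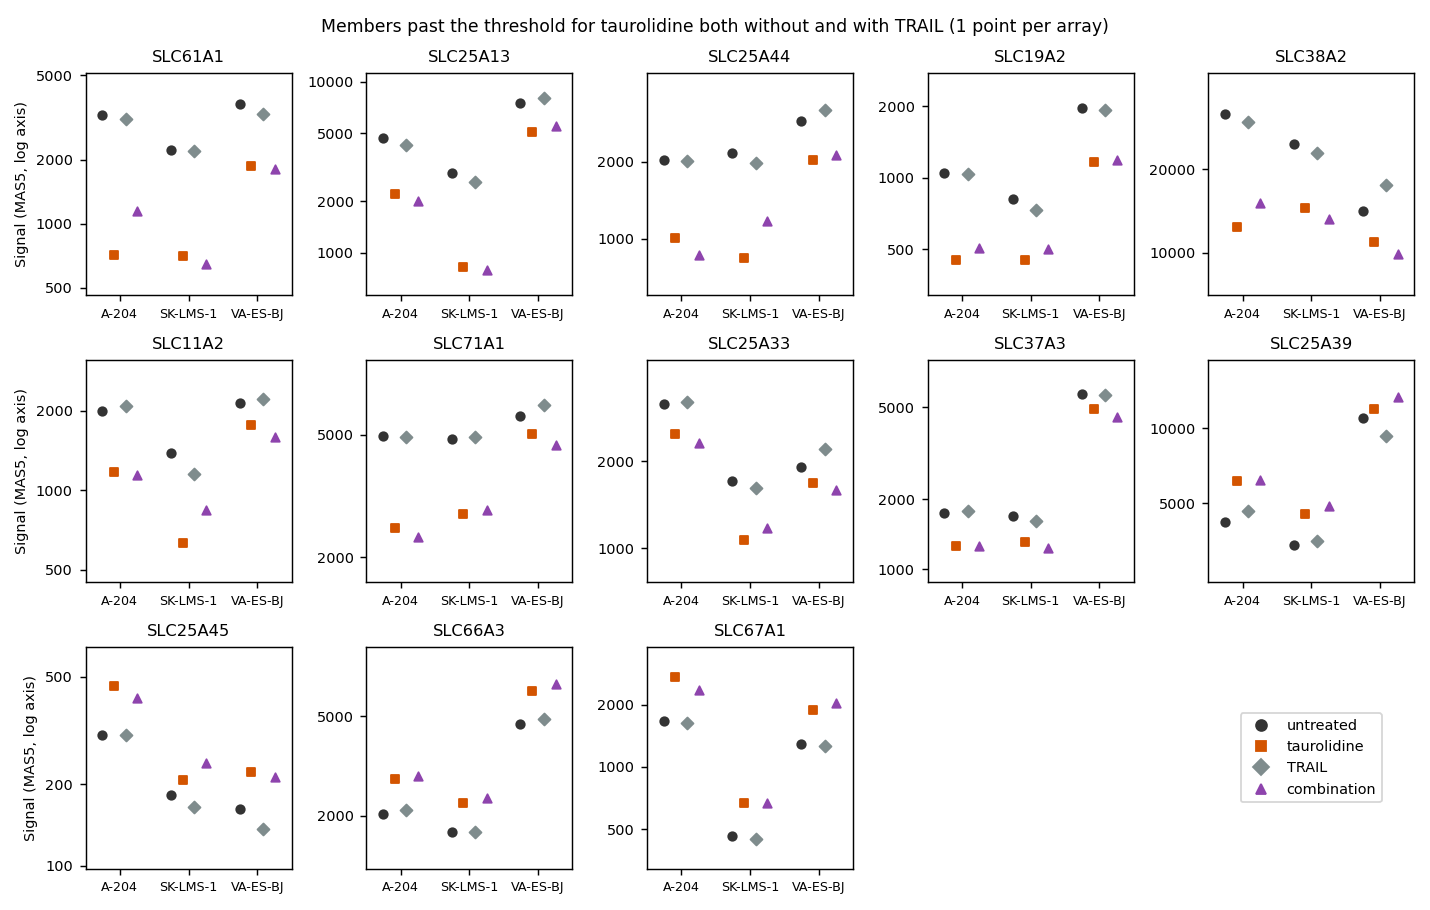
Signal (log axis) on each of 12 arrays for the 13 members past the threshold for taurolidine both without and with TRAIL, by cell line, with a marker per treatment. In each line of each panel the 2 arrays with taurolidine lie on the same side of the 2 without it; the 4 rising panels are as deposited, and with scaling to the spikes each of them but SLC67A1 with TRAIL had a change below 0.

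With TRAIL present the changes were -1.35 ± 0.25 for SLC61A1, -1.11 ± 0.27 for SLC25A13, -0.86 ± 0.17 for SLC38A2 and -0.75 ± 0.13 for SLC19A2 (limma adjusted p = 0.012, 0.031, 0.017 and 0.0091). The 9 members that passed with TRAIL present and not without it included mitochondrial carriers. SLC25A1, the citrate carrier, went from 3125, 3510.5 and 2089 with TRAIL to 4039, 4998 and 4085 with both, a rise of 0.61 ± 0.15 (limma adjusted p = 0.033), and without TRAIL it differed by 0.50 ± 0.15 (adjusted p = 0.055). Whether the responses without and with TRAIL differ was not tested.

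SLC25A10, the dicarboxylate carrier, rose from 455, 652 and 1448 to 869, 1077 and 2143 and SLC25A23, a magnesium-ATP and phosphate carrier, from 1144, 707 and 1633 to 2388, 958 and 2626. SLC25A32, the mitochondrial folate carrier, fell from 10112, 10527 and 6647 to 8209, 8056 and 5456, by 0.32 ± 0.08. SLC30A4, a zinc exporter, fell from 1645, 1005 and 802 to 799, 691 and 659.8. In this comparison 5 of 39 mitochondrial carriers rose and 4 fell, where 6.53% of all genes rose and 9.63% fell.

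SLC38A6 and SLC41A3, a magnesium carrier, rose by 0.33 ± 0.09 and 0.45 ± 0.12 as deposited, while their changes were -0.22 and -0.10 with scaling to the spikes. SLC34A3 and SLC6A11, at 296, 589 and 437 and 181, 100.4 and 98.8 with TRAIL, were at 787, 712 and 818 and 266, 254 and 207 with both and rose. In SK-LMS-1 both genes had an untreated array (866 and 190.2) above the taurolidine array (693 and 162).

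**Figure D4:**
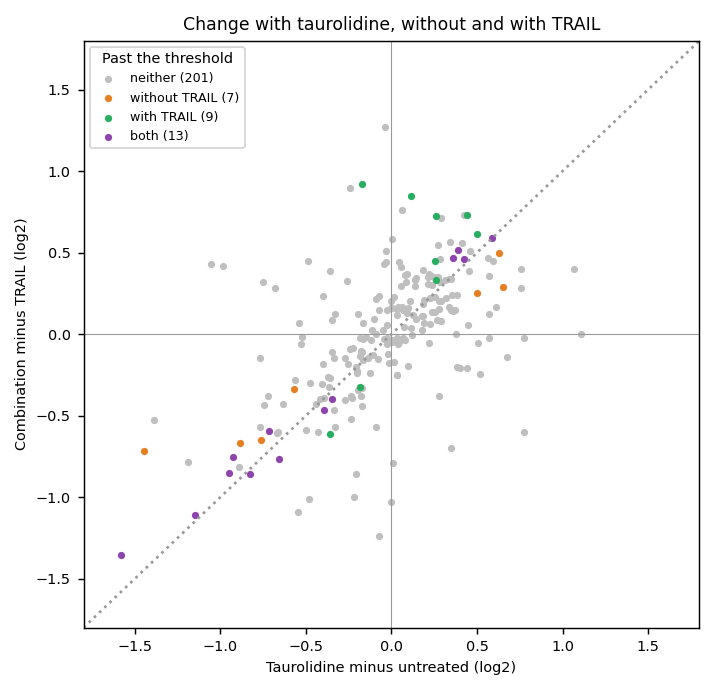
Change with taurolidine in the absence of TRAIL (x axis, log2) against the change in its presence (y axis, log2) for 230 members, 1 point per member, with the line of equal change dotted. Purple points (13) passed in both comparisons and lie on the same side of 0 on both axes, orange points (7) passed without TRAIL and green points (9) with it; with scaling to the spikes 6 of the 7 rises without TRAIL and 5 of the 11 with it were below 0.

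The combination against untreated cells shares its untreated arrays with the first comparison. In limma 24 members (10.4%) passed, against 18.8% of all genes (59 at an unadjusted p under 0.05, against 34.8%), with 12 higher (7.58% of all genes) and 12 lower (11.3%), a split of 23 to 9 after quantile normalisation, 12 to 8 with equal array medians and 1 to 72 with scaling to the spikes. Of the 6 members not named so far, SLC41A2, at 523, 539.6 and 1344 untreated and 277, 397 and 1171 with both agents, fell by 0.51 ± 0.14, and SLC27A4, a fatty acid carrier, went from 789.8, 703 and 851 to 992, 909 and 1229. SLC27A4, SLC75A1 and SLC33A2 rose by 0.40 ± 0.11, 0.40 ± 0.11 and 0.59 ± 0.17 as deposited, and with scaling to the spikes SLC27A4 and SLC75A1 changed by -0.044 and -0.052. SLC25A28, SLC30A4, SLC25A23, SLC39A4 and SLC50A1 passed here and in 1 of the 2 comparisons above, and the 13 members shared by those comparisons passed here too.

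The dopamine carrier SLC6A3 went from 161, 45.7 and 46.1 untreated to 349.9, 196 and 258 with both agents, by 1.71 ± 0.45 (limma adjusted p = 0.035), with 2 of the 3 untreated values under the table median and no overlap of the 2 groups. SLC39A5, a zinc importer, went from 289, 52.3 and 35.1 to 319, 181 and 76.3, by 0.88 ± 0.24, and these arrays overlapped across lines.

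TRAIL alone moved no member past the threshold against untreated cells in limma (0 of 230, and 0.0% of all genes), with 11 members at an unadjusted p under 0.05, against 3.98% of all genes. TRAIL on top of taurolidine gave 0 members as well, with 4 at an unadjusted p under 0.05, against 2.64%. The median absolute difference of the members with TRAIL alone was 0.12, the same to 2 decimals as for all genes. For SLC61A1, SLC25A13 and SLC38A2 the differences were -0.07 ± 0.25, -0.07 ± 0.27 and 0.04 ± 0.17.

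The response to taurolidine was compared between lines by setting the 2 arrays with taurolidine against the 2 without in each line. In limma's F test 8 members (3.48%) passed, against 3.38% of all genes, and 46 had an unadjusted p under 0.05, against 20.6%. SLC33A1, the acetyl-coenzyme A carrier of the endoplasmic reticulum, lay at 1695, 1105, 1708 and 1155 in A-204 (untreated, taurolidine, TRAIL and combination), 2291, 1258, 2143 and 1404 in SK-LMS-1 and 2259, 2701, 2263 and 2678 in VA-ES-BJ. It was lower with taurolidine in A-204 and SK-LMS-1 and higher in VA-ES-BJ, with changes of -0.59, -0.73 and 0.25 (standard error 0.09 each, F test adjusted p = 0.017 in limma).

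SLC1A4, the alanine, serine and cysteine carrier ASCT1, changed by -0.63, 0.02 and 0.72 in A-204, SK-LMS-1 and VA-ES-BJ (limma adjusted p = 0.025). Its arrays read 1407, 926, 1419 and 897 in A-204 and 1185, 1675, 942 and 1823 in VA-ES-BJ, so that taurolidine stood below in the former and above in the latter. SLC17A5, the lysosomal sialic acid carrier, changed by -1.26, -0.36 and -0.01 (limma adjusted p = 0.028), from 3306 to 1456 in A-204 and from 4025 to 4445 in VA-ES-BJ.

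The aspartate and glutamate carriers differed in where they changed most. SLC25A13 changed by -1.09, -1.76 and -0.54 and SLC25A12, or aralar, by -1.13, -0.21 and -0.24 in the same order of lines (limma adjusted p = 0.02 and 0.037). SLC25A12 went from 2721 to 1132 in A-204. Over all lines it did not pass for taurolidine (-0.63 ± 0.23).

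SLC4A7, SLC20A2 and SLC71A1 had their smallest changes in VA-ES-BJ, at -1.10, -0.81 and -0.20, -1.07, -0.70 and -0.13 and -1.03, -0.80 and -0.31 for A-204, SK-LMS-1 and VA-ES-BJ. The adjusted p-values of limma's F test were 0.034, 0.041 and 0.048. SLC20A2, a phosphate carrier chosen after its values were seen, read 859, 369, 724 and 370.2 in A-204 and 1142, 1088, 1229 and 1077 in VA-ES-BJ. The count of 8 depended on settings and was 0 with scaling to the spikes or without the filter on dim probe sets, and 3 with TRAIL as a further term.

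**Figure D5:**
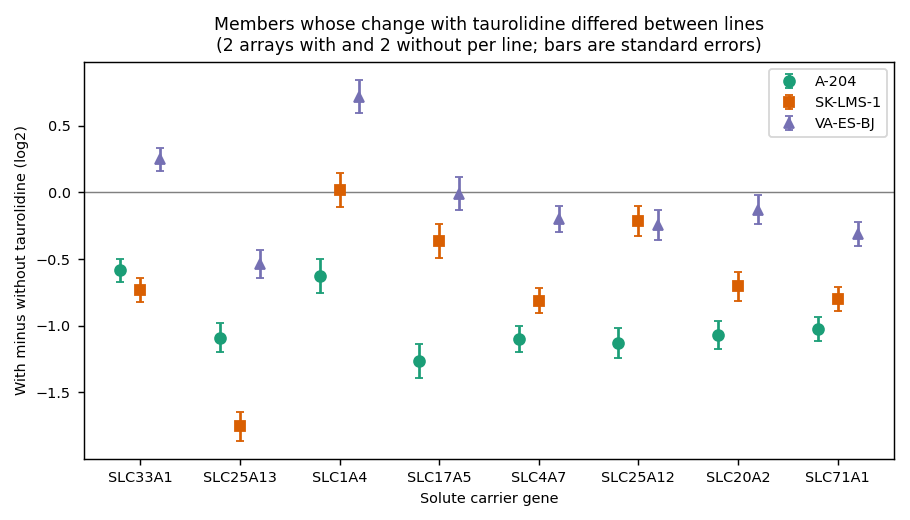
Change with taurolidine (log2, 2 arrays with minus 2 without in each line) for the 8 members whose change differed between lines, with a marker per cell line and bars of 1 standard error. VA-ES-BJ lies nearest to 0 or above it for 7 of the 8 genes, and A-204 or SK-LMS-1 lies lowest; with scaling to the spikes 0 members passed this test.

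A list of 51 widely studied carriers, chosen with earlier results of these data known, had 43 measured members. With taurolidine 1 of 43 rose (SLC37A4) and 6 of 43 fell (SLC38A2, SLC11A2, SLC4A7, SLC19A2, SLC25A28 and SLC25A33), where 7.73% of all genes rose and 11.5% fell, and the list's median of -0.11 stood beside -0.0035 for all genes. With taurolidine on top of TRAIL 1 rose (SLC25A1) and 4 fell, where 6.53% of all genes rose and 9.63% fell.

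Genes that work with solute carriers were described from lists chosen in the same way. Of 10 genes of the amino acid response, which regulates several amino acid carriers, 4 rose and 2 fell with taurolidine, where 7.73% of all genes rose and 11.5% fell. ATF4, its transcription factor, went from 11479, 20221 and 7879 to 28054, 35086 and 16114, by 1.04 ± 0.13 (limma adjusted p = 0.0024), and ATF3 rose by 3.34 ± 0.45, ASNS by 0.45 ± 0.09 and PHGDH by 0.72 ± 0.10, while TRIB3 fell by 0.85 ± 0.16, and SESN2 fell from 948, 813 and 2058 to 186, 489 and 724. The list's median was 0.33, beside -0.0035 for all genes. With scaling to the spikes the changes of ATF4, ATF3 and PHGDH were 0.40, 2.72 and 0.085, that of ASNS was -0.18, and those of TRIB3 and SESN2 were -1.48 and -2.11. With taurolidine on top of TRAIL 4 again rose and 2 fell. ATF3 and CEBPB passed the F test between lines (limma adjusted p = 0.032 and 0.02).

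Of 6 measured genes of the mitochondrial pyruvate carrier and outer membrane channels 3 rose as deposited and 0 fell, with a median of 0.37, where 7.73% of all genes rose. With taurolidine on top of TRAIL 1 rose (MPC1), with a median of 0.22. MPC1, a pyruvate carrier subunit, went from 1860.1, 2559.6 and 1655 to 3314, 3472 and 2381, by 0.60 ± 0.12, and the channels VDAC2 and VDAC3 rose by 0.35 ± 0.10 and 0.39 ± 0.11. With scaling to the spikes the changes of MPC1, VDAC2 and VDAC3 were -0.038, -0.28 and -0.25. Of 3 measured sodium pump genes FXYD5 rose, from 10519, 10490.4 and 8649 to 18395, 15089.6 and 11462, by 0.58 ± 0.10 as deposited, while its change was -0.058 with scaling to the spikes.

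Of 8 zinc response genes 0 rose and 1 fell, where 7.73% of all genes rose and 11.5% fell, with a median of 0.37. With taurolidine on top of TRAIL 1 rose and 1 fell, with a median of 0.11, where 6.53% of all genes rose and 9.63% fell. The gene that fell with taurolidine alone was MTF1, the zinc-sensing transcription factor. It went from 1499.9, 1117 and 1261 to 632, 839.7 and 613, a change of -0.89 ± 0.18 (limma adjusted p = 0.016). The metallothioneins MT1X and MT2A differed by 0.41 ± 0.15 and 0.36 ± 0.15 without passing, and by -0.23 and -0.28 with scaling to the spikes. MT1M, which did not pass for taurolidine either, differed by 1.57 after quantile normalisation, 1.52 with equal array medians and 0.93 with the spikes. Of 4 measured accessory subunits 0 passed (median 0.17), such as the monocarboxylate carrier chaperone BSG (0.37 ± 0.23), and of 11 kinases and trafficking regulators 0 passed (median -0.12), among them NEDD4 at -0.37 ± 0.15. SGK1, a kinase that regulates several carriers, averaged 0.09 ± 0.37 over the lines but changed by -0.90, 0.72 and 0.50 in A-204, SK-LMS-1 and VA-ES-BJ, and passed the F test between lines (limma adjusted p = 0.0052), as did WNK4 (0.028), where 3.38% of all genes did. In A-204 WNK4 lay at 161, 9.32, 84.7 and 26.3 (untreated, taurolidine, TRAIL and combination), mostly below the table median. Its change there depends on the constant added to values so low.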

How the data were processed

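RNA of 12 samples (3 cell lines by 4 treatments) was hybridised to Affymetrix 3′ expression arrays, and the authors deposited 1 signal intensity per probe set, made with MAS5 per the submitters' processing notes. Symbols come from the platform annotation. Of 54675 probe sets, 41097 had 1 gene symbol, 1801 several and 11777 none, while no test used the 62 controls. A constant of 11.8, the 10th percentile of all values, was added before taking log2, which shrinks the fold changes of dim genes. Each gene was represented by the probe set of highest mean on this scale that exceeded 136.5 on at least 3 arrays. limma 3.58.1 in R 4.3.3 (lmFit and eBayes) was fitted to all 14221 genes with treatment and cell line as terms, so each line served as a block, with Benjamini-Hochberg adjustment over all genes and a threshold of 0.05. A second model, with line, taurolidine and their interaction, gave the F test between lines. Arrays of 1 line deviated together from their treatment means (correlations 0.852 to 0.904), and arrays of different lines did not (-0.481 to -0.386). Each treatment mean was taken over 3 different cell lines, which by itself pushes the correlations between lines below 0. These values therefore describe the lines and cannot check the pairing. The fits were tested on simulated data. Members, lists and tests were chosen with earlier results of these data known. The text names members with the largest changes past the threshold in each treatment comparison, those most apart in each line, those of smallest p in the F test, the brightest members and those of smallest p in each substrate class, and a list of widely studied carriers. Alternatives covered the constant, the filter, the probe set, the scaling, the block, the arrays fitted, TRAIL as a term and leaving out a line. The number of arrays limits the precision.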

Additional observations from a re-analysis of the deposited data

Results flagged for a closer look

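For 8 members the change with taurolidine differed between the cell lines in limma's F test of the interaction. The adjusted p-values were 0.017 for SLC33A1, 0.02 for SLC25A13, 0.025 for SLC1A4, 0.028 for SLC17A5, 0.034 for SLC4A7, 0.037 for SLC25A12, 0.041 for SLC20A2 and 0.048 for SLC71A1, in a test that 3.38% of all genes passed. SLC33A1 changed by -0.59, -0.73 and 0.25 and SLC1A4 by -0.63, 0.02 and 0.72 in A-204, SK-LMS-1 and VA-ES-BJ, so that VA-ES-BJ had the opposite sign to A-204 in both. SLC17A5 changed by -1.26, -0.36 and -0.01 and SLC25A12 by -1.13, -0.21 and -0.24, each furthest from 0 in A-204, and SLC25A13 by -1.09, -1.76 and -0.54, furthest from 0 in SK-LMS-1. SLC4A7, SLC20A2 and SLC71A1 were furthest from 0 in A-204 and nearest to 0 in VA-ES-BJ. With scaling to the spikes or no filter on dim probe sets 0 members passed this test, and the cause was not tested.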

How the results depend on the processing

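Counts are given for taurolidine against untreated, the combination against TRAIL, and the combination against untreated, where 20, 22 and 24 members passed. These are 8.7%, 9.57% and 10.4% of members, against 19.2%, 16.2% and 18.8% of all genes. The counts were 11, 8 and 7 without the filter on dim probe sets, 34, 37 and 37 among genes over the table median on all 12 arrays, and 124, 91 and 73 with scaling to the spikes, and the first was 31 after quantile normalisation. The filter settings also change which members and genes are tested. With the spikes the medians of all genes moved to -0.62, -0.47 and -0.42. Counts of all genes under these settings are not given here, so the changes in count cannot be assigned to the carriers. Without the cell line as a block, and with only the arrays of the 2 treatments compared, each count was 0. Leaving out 1 line gave 1 to 2, 1 to 2 and 0 to 3, from 2 lines in place of 3. The 8 members of the test between lines became 0 without the filter, 21 over the median on all 12 arrays, 4 with equal array medians, 0 with the spikes, 2 with the median over probe sets and 3 with TRAIL as a further term. With the constant at 1 or 50, or the probe set of highest linear mean, these counts stayed within 1.5 times. The total counts between lines did so under every alternative run, but not their split, since the 43 members lower in A-204 than in SK-LMS-1 became 72 with the spikes.

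Scaling to the spikes reversed 15 values. For taurolidine these were SLC25A39 (-0.28), SLC25A45 (-0.22), SLC37A4 (-0.13), SLC50A1 (-0.0012), SLC66A3 (-0.21) and SLC67A1 (-0.045). For the combination against TRAIL they were SLC25A39 (-0.080), SLC25A45 (-0.0092), SLC38A6 (-0.22), SLC41A3 (-0.10) and SLC66A3 (-0.090), and against untreated SLC25A45 (-0.038), SLC27A4 (-0.044) and SLC75A1 (-0.052). SLC66A3 between A-204 and SK-LMS-1 became -0.017. The median over probe sets turned SLC7A1 between A-204 and SK-LMS-1 to 0.044. The cause was not tested. Members near the table median, such as SLC18A2 and SLC6A3, are limited by signal over background, and each comparison of treatments rests on 3 arrays a side.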
